A study of Mus musculus with 54 samples.

Results

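The genes examined were 10 glial genes, Slc1a2, Slc1a3, Aqp4, Gja1, Gjb6, Gfap, S100b, Aldh1l1, Aldoc and Sox9, taken by symbol as markers of astrocytes and of the Bergmann glia of the cerebellum. They were 10 of the 47069 genes in the count table, each was found once, and all 10 passed the filter on low counts in every region. RNA-seq had been run on 3 brain regions, cerebellum, cortex and striatum, taken from each of 18 mice aged 8 weeks, with 1 library per mouse and region. Of these mice, 10 were Mbd5+/GT, heterozygous for a germline gene-trap insertion that makes Mbd5 hypomorphic (it lies in intron 2), and 8 were WT littermates, all on a C57BL/6 background. The mice came from 3 litters. Litter 1 held 3 female Mbd5+/GT and 3 female WT mice, litter 2 held 4 male Mbd5+/GT mice and 1 male WT mouse, and litter 3, with males and females in both genotypes, held 3 Mbd5+/GT mice and 4 WT mice. By the methods, all tissue of 1 region was collected on 1 day, and the days of the 3 regions are not given in the sources used here.

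Astrocytes take up released neurotransmitter, buffer potassium and water, and join their cytoplasm through gap junctions, so that transporters, channels and connexins are among their most used marker genes. Slc1a2 and Slc1a3 encode the glutamate transporters GLT-1 and GLAST. In the cerebellum, the radial processes of Bergmann glia wrap the synapses of Purkinje cells, and these cells are known for GLAST, whereas GLT-1 is the main transporter of forebrain astrocytes. The other genes encode the water channel of astrocyte endfeet (Aqp4), connexin 43 (Gja1), connexin 30 (Gjb6), the intermediate filament protein GFAP, the calcium-binding protein S100B, a folate enzyme (Aldh1l1), the brain aldolase (Aldoc) and a glial transcription factor (Sox9).

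Promoter sequence is shown for the genes with the most unlike regional patterns that have a RefSeq entry clear of annotated exons or nearly so: Slc1a2, which was lowest in cerebellum, and Slc1a3 and S100b, which were highest there. The Slc1a2 entry starts inside the annotated gene. Each line gives the 250 bases before the RefSeq start on GRCm38.p6, 5′ to 3′, with capitals marking matches on either strand to any of 6 motifs. These were the TATA box TATAAA, the E-box CANNTG, the NFI motif TTGGCA, the SOX motif ACAATG, the STAT motif TTCNNNGAA and the GC box GGGCGG.
Slc1a2 chr2:102706188-102706437 (+ strand): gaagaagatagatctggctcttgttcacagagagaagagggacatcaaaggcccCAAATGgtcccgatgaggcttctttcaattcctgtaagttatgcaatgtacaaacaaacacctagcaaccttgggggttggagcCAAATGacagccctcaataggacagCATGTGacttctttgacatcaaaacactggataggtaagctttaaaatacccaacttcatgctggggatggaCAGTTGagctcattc
Slc1a3 chr15:8710808-8711057 (- strand): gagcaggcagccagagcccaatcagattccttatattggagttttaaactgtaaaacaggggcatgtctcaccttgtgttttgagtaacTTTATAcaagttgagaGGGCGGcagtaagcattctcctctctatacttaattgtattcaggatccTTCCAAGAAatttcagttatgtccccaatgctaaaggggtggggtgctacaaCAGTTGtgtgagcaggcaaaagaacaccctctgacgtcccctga
S100b chr10:76253586-76253835 (+ strand): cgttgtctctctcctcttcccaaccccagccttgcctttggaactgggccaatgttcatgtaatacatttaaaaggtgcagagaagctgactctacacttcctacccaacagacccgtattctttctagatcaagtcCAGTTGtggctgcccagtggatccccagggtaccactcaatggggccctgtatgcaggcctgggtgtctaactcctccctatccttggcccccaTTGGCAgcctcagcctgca

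The Slc1a2 window held 4 E-boxes and none of the other 5 motifs, and 29 of its bases lie in an annotated Slc1a2 exon. In the Slc1a3 window, the matches were 1 each of the TATA box, the E-box, the STAT motif and the GC box. The S100b window held 1 E-box and 1 NFI motif. Of all 32536 distinct windows of the same length, 66.2% held an E-box, 33.0% a GC box, 12.3% a TATA box, 12.3% an NFI motif, 10.5% a SOX motif and 7.04% a STAT motif. The 3 windows differed in GC content, with 44.8% in both transporter windows and 53.6% for S100b against a median of 52.4%.

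Gene counts summed to 25295973 in the shallowest library and 49027399 in the deepest, and each glial gene had from 291 (Sox9) to 139622 (Slc1a2) of them in a library. Mbd5 itself was lower in Mbd5+/GT mice in all 3 regions, with a log2 fold change of -0.34 (SE 0.048, adjusted p = 0.0091) in cerebellum, -0.49 (SE 0.048, adjusted p = 0.00012) in cortex and -0.51 (SE 0.048, adjusted p = 9.41e-05) in striatum. Several libraries went against or stood apart from their region label. The cerebellum library of Mbd5+/GT mouse M755 had a summed level of 69.3 CPM (counts scaled to library size by TMM) over 6 granule neuron genes, where the other 17 cerebellum libraries had 1206 or more. That library also had the highest sums of 8 myelin genes (32585 CPM) and of 11 Hox genes (291 CPM), which mark the hindbrain and spinal cord. Hox sums of 50.3 CPM or more were found in 4 cerebellum libraries, those of Mbd5+/GT mice M755 and M756 and WT mice M754 and M761 (called the Hox libraries here), and the other 14 had at most 2.41 CPM. In striatum, the libraries of WT mice M754 and M761 had 206 and 521 CPM over 7 striatal neuron genes against a region median of 2342 CPM. Many of the results that rest on these libraries are given with and without them.

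**Figure D1:**
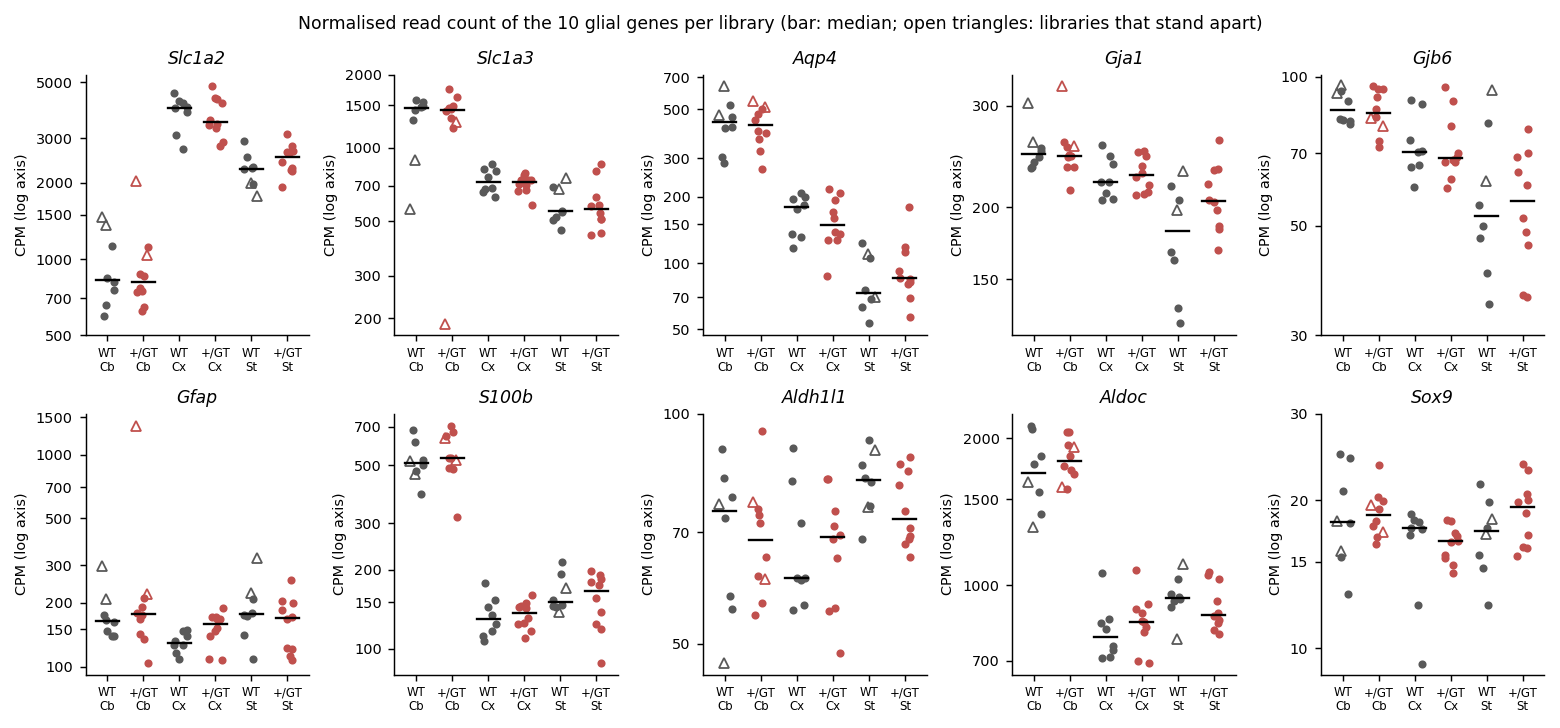
TMM-normalised read count (CPM, log axis) of each of the 10 glial genes, with 1 point per library, WT in grey and Mbd5+/GT in red, in cerebellum (Cb), cortex (Cx) and striatum (St); bars are group medians. Open triangles are the 4 cerebellum libraries with Hox counts and the 2 striatum libraries low in striatal neuron genes; Slc1a2 was lowest in cerebellum, Aqp4, S100b and Aldoc were highest there, and the genotypes overlapped in each panel.

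The first comparison was between regions, over both genotypes. Relative to cortex, cerebellum had higher levels of 8 of the 10 genes and a lower level of Slc1a2 (edgeR quasi-likelihood test, adjusted p under 0.05), and Aldh1l1 did not pass (log2 difference 0.05, 95% interval -0.11 to 0.20). Without the Hox libraries 5 of the 10 were higher, Gfap, Gja1 and Gjb6 no longer passing. In that fit 34.5% of all genes were higher and 70.6% passed in either direction. Without litter 2 the count was also 5, Gja1, Gjb6 and Sox9 no longer passing. There 31.8% of all genes were higher and 62.2% passed in either direction. These regions differ widely. Over all libraries 68.9% of all 20477 genes tested passed the same threshold, 35.5% higher and 33.3% lower in cerebellum. At least 2-fold higher in cerebellum were S100b, Aldoc and Aqp4, 3 of 10 against 9.04% of all genes, and at least 2-fold lower was Slc1a2, 1 of 10 against 16.5%. Relative to striatum, 6 genes were higher in cerebellum and 2 lower, where 75.2% of all genes passed; 3 were at least 2-fold higher (11.9% of all genes) and 1 at least 2-fold lower (17.5%). Between cortex and striatum, 4 genes were higher in cortex and 3 in striatum, where 58.9% of all genes passed, and none of the 10 differed 2-fold (5.09% of all genes were at least 2-fold higher in cortex and 4.03% at least 2-fold lower). The median log2 difference of the 10 genes was 0.47, 0.49 and 0.04 in these 3 comparisons, and that of all genes tested was 0.02, -0.0020 and 0.0017. In bulk tissue, fewer cells of a type and less RNA per cell cannot be told apart. Cortex and striatum libraries also overlapped in neuron genes. Sums of 7 cortical neuron genes were 1062 to 1926 CPM in cortex and 53.6 to 1677 CPM in striatum. Those of 7 striatal neuron genes were 105 to 1366 CPM in cortex and 206 to 4971 CPM in striatum. What part this has in the differences between these 2 regions was not tested.

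The glutamate transporters went in opposite directions. Slc1a2 (chr2:102658659-102790784 on GRCm38) ranged from 597 to 2038 CPM in cerebellum (median 825), from 2727 to 4834 CPM in cortex (median 3880) and from 1777 to 3123 CPM in striatum (median 2307). In all 18 mice the cerebellum had the lowest level of the 3 regions and the cortex the highest. Cerebellum was 3.95-fold below cortex (log2 difference -1.98, SE 0.12, adjusted p = 1.00e-20) and 2.51-fold below striatum (log2 difference -1.33, SE 0.12, adjusted p = 1.49e-14). Cerebellum and cortex did not overlap, and the overlap of cerebellum with striatum came from the library of mouse M755 alone. Of the Hox libraries, those of mice M755, M754 and M761 had the 3 highest cerebellum values (2038, 1467 and 1366 CPM) and that of mouse M756 had 1042 CPM, where the other 14 reached 1125 CPM. Without the Hox libraries the difference from cortex was -2.25 (SE 0.094, adjusted p = 7.84e-27).

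Slc1a3 (chr15:8634124-8710764), the transporter of Bergmann glia, ranged from 191 to 1743 CPM in cerebellum (median 1437), from 582 to 864 CPM in cortex (median 723) and from 441 to 856 CPM in striatum (median 549). The cerebellum was above the cortex in 16 of 18 mice, and both exceptions were among the libraries with Hox counts, mouse M755 with 191 CPM and mouse M754 with 564 CPM. The log2 difference from cortex was 0.84 (SE 0.14, adjusted p = 3.08e-07) over all libraries. Without those 4 libraries the 14 cerebellum values (1212 to 1743 CPM) overlapped no value of either other region, and the difference was 1.00 (SE 0.074, adjusted p = 3.32e-17). Between cortex and striatum, Slc1a3 differed by 0.30 on the log2 scale (SE 0.14, adjusted p = 0.055), which passed without the 4 Hox libraries of cerebellum (0.27, adjusted p = 0.00066) and without the libraries low in their own neuron genes (0.35, adjusted p = 0.0014). Scaled per kilobase of exon, the ratio of Slc1a3 to Slc1a2 had a median of 2.94 in these 14 cerebellum libraries (2.02 to 3.49), 0.304 in cortex (0.224 to 0.406) and 0.357 in striatum (0.294 to 0.650). In the cerebellum library of mouse M755 it was 0.144, below every cortex and striatum library.

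Aqp4 (chr18:15389496-15410982), which encodes aquaporin 4, had its levels in the order cerebellum, cortex, striatum. It ranged from 268 to 635 CPM in cerebellum (median 431), from 87.7 to 218 CPM in cortex (median 165) and from 53.3 to 179 CPM in striatum (median 83.8). Cerebellum overlapped neither of the other regions, and cortex was above striatum in 17 of 18 mice. The log2 differences were 1.40 (SE 0.13, adjusted p = 5.72e-14) for cerebellum against cortex, 2.26 (SE 0.13, adjusted p = 3.05e-21) against striatum, and 0.86 (SE 0.13, adjusted p = 2.63e-07) for cortex against striatum. Per kilobase of exon, its median ranked the fourth of the 10 genes in cerebellum, above Slc1a2 in 11 of 18 libraries, and the ninth in striatum, below Aldh1l1 in 12 of 18.

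The connexin genes differed less between regions. Gja1 (chr10:56377330-56402513) had medians of 246, 224 and 201 CPM in cerebellum, cortex and striatum, with a difference of 0.15 (SE 0.062, adjusted p = 0.030) between cerebellum and cortex and 0.38 (SE 0.062, adjusted p = 3.60e-07) between cerebellum and striatum. The difference from cortex did not pass without the Hox libraries (0.08, adjusted p = 0.25) or by DESeq2 (adjusted p = 0.0505). Gjb6 (chr14:57123303-57133611) had medians of 84.5, 69.5 and 53.3 CPM, and cerebellum was above striatum in 18 of 18 mice (log2 difference 0.60, SE 0.096, adjusted p = 2.19e-07). Its difference from cortex, 0.24 (SE 0.096, adjusted p = 0.023), did not pass without the Hox libraries either (0.22, adjusted p = 0.065). The ranges of both genes overlapped between all regions.

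S100b (chr10:76253853-76261159), whose protein binds calcium, and Slc1a2 had the largest differences between cerebellum and cortex of the 10 genes, in opposite directions. S100b ranged from 319 to 708 CPM in cerebellum (median 525), from 107 to 177 CPM in cortex (median 132) and from 88.4 to 214 CPM in striatum (median 155). Cerebellum was 4.00-fold above cortex (log2 difference 2.00, SE 0.095, adjusted p = 3.45e-25) and 3.37-fold above striatum (log2 difference 1.75, SE 0.094, adjusted p = 4.94e-23), with no overlap and in 18 of 18 mice. Striatum was above cortex by 0.25 on the log2 scale (adjusted p = 0.018), in 15 of 18 mice and with overlapping ranges, and did not pass without litter 2 (-0.24 for cortex against striatum, adjusted p = 0.093).

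The regional differences of Gfap (chr11:102887336-102900912), whose filament protein is used to stain astrocytes, depended on which cerebellum libraries were counted. It ranged from 104 to 1370 CPM in cerebellum (median 171), from 108 to 188 CPM in cortex (median 143) and from 108 to 324 CPM in striatum (median 175). The highest value was that of mouse M755, and the other 17 cerebellum libraries had at most 299 CPM. Cerebellum was above cortex by 0.70 (SE 0.21, adjusted p = 0.0029) over all libraries and by 0.31 (SE 0.11, adjusted p = 0.010) without the libraries low in their own neuron genes. Without the 4 Hox libraries the difference was 0.16 (SE 0.12, adjusted p = 0.21), and that from striatum went from 0.36 (adjusted p = 0.11) to -0.20 (adjusted p = 0.12). In the same fit striatum was above cortex by 0.37 on the log2 scale (adjusted p = 0.0037), which did not pass over all libraries (log2 difference of cortex from striatum -0.34, adjusted p = 0.16).

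Of the genes of metabolic enzymes, Aldoc (chr11:78322968-78327781) was high in cerebellum, with 1316 to 2121 CPM (median 1763), against 694 to 1073 CPM in cortex (median 828) and 776 to 1105 CPM in striatum (median 929). No cerebellum library overlapped the others, and the log2 difference was 1.09 from cortex (SE 0.064, adjusted p = 1.59e-21) and 0.93 from striatum (SE 0.063, adjusted p = 9.08e-19). Aldoc is also made by bands of Purkinje cells, so that its level in cerebellum is not that of glia alone. Aldh1l1 (chr6:90486427-90600203) had medians of 72.5, 66.6 and 78.1 CPM in cerebellum, cortex and striatum, and was lower in cortex than in striatum (log2 difference -0.22, SE 0.078, adjusted p = 0.014), which did not pass without litter 2 (-0.19, adjusted p = 0.14). Its exons overlap 604 bases of other annotated genes, and those of Slc1a2 overlap 189, so that some reads of these genes are uncertain. Sox9 (chr11:112782224-112787760), the transcription factor gene, had medians of 18.2, 17.0 and 17.9 CPM, with cerebellum above cortex by 0.22 (SE 0.081, adjusted p = 0.016), which did not pass without litter 2 (0.21, adjusted p = 0.080). Between cortex and striatum Sox9 differed by -0.16 (adjusted p = 0.097), which passed with the mouse as a block (-0.16, adjusted p = 0.012) and with library totals as the scaling (-0.21, adjusted p = 0.028).

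**Figure D2:**
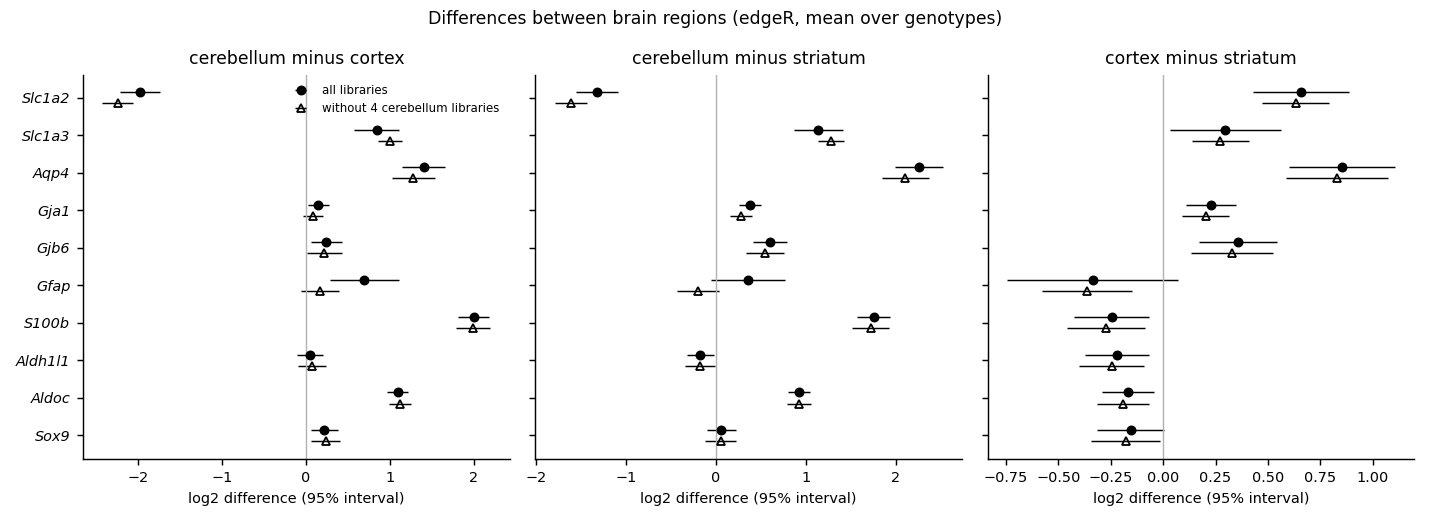
Log2 difference between regions with its 95% interval for each gene, from the edgeR fit over all 54 libraries (filled circles) and without the 4 cerebellum libraries with Hox counts (open triangles); each panel has its own horizontal scale. Gfap is the gene whose estimates moved most, from 0.70 to 0.16 against cortex, while S100b, Aldoc, Aqp4 and Slc1a2 stayed far from 0 against both other regions.

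Per kilobase of exon, the order of the 10 genes also differed between regions. In cerebellum, Aldoc (median 540 CPM per kilobase) was followed by S100b (353) and Slc1a3 (168), whereas in cortex Slc1a2 (295) and Aldoc (254) came before S100b (89.2) and Slc1a3 (84.7). In striatum the order was Aldoc (285), Slc1a2 (176), S100b (104) and Slc1a3 (64.3). Many neighbours in this order overlapped. Among those least separated, the first was higher in 11 of 18 libraries for Aqp4 and Slc1a2 in cerebellum, in 12, 11 and 7 of 18 for Slc1a2 and Aldoc, S100b and Slc1a3, and Aqp4 and Gjb6 in cortex, and in 11, 13 and 12 of 18 for Gjb6 and Gja1, Gja1 and Aldh1l1, and Aldh1l1 and Aqp4 in striatum. Sox9 was the lowest in all 3 regions, with medians from 4.10 to 4.40, and overlapped its nearest neighbour in none. Exon length was taken over all annotated exons, so these values shift if a shorter isoform is used.

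Other genes of the same pathways, in lists chosen with earlier results of these data known, were compared between cerebellum and cortex, where 68.9% of all genes passed (35.5% higher and 33.3% lower in cerebellum). Of 5 genes of Bergmann glia, 4 were higher in cerebellum: Gdf10, a growth factor of the BMP family, by 4.70 (SE 0.25), the protease inhibitor gene A2m by 4.64 (SE 0.37), Hopx by 2.46 (SE 0.18) and Timp4 by 2.42 (SE 0.11) on the log2 scale. The cerebellum library of mouse M755 had 4.27 CPM of Gdf10, where the cerebellum median was 150 CPM and the cortex median 5.11 CPM. All 3 genes of forebrain astrocytes were lower in cerebellum: the transcription factor Lhx2 by -6.29 (SE 0.35), Chrdl1 by -1.71 (SE 0.17) and Mfge8 by -1.52 (SE 0.12). Of 3 genes of astrocytes outside the forebrain, Agt (2.60, SE 0.38) and the glycine transporter gene Slc6a9 (1.43, SE 0.12) were higher in cerebellum, and Slc6a11, a GABA transporter gene, was lower (-0.87, SE 0.29). Slc6a11 had medians of 55.8 CPM in cerebellum and 181 CPM in cortex. Its cerebellum values reached 490 CPM in the library of mouse M755 and 404 CPM in WT mice.

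Against the same 68.9% of all genes, 6 of 8 uptake genes passed, 2 higher and 4 lower in cerebellum, with a median log2 difference of -0.50. The largest differences were those of Slc6a9, the glutamate receptor gene Grm3 (-1.66, SE 0.10) and the cystine transporter gene Slc7a11 (-1.26, SE 0.14). Of 9 ion and water genes, 6 were higher and 0 lower by the adjusted threshold (1 lower at an unadjusted p under 0.05), with a median of 0.37. They included the sodium pump subunit gene Atp1b2 (1.48, SE 0.063), Fxyd1 (1.20, SE 0.11) and the bicarbonate transporter gene Slc4a4 (1.11, SE 0.10). Of 8 junction and surface genes, 2 were higher and 3 lower (median -0.18), with Gpr37l1 the largest (1.24, SE 0.072).

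Against that 68.9%, 10 of 12 metabolic genes passed, 4 higher and 6 lower (median -0.10), among them Pla2g7 (1.248, SE 0.066), the metallothionein gene Mt2 (1.11, SE 0.11) and the thyroid hormone deiodinase gene Dio2 (-1.64, SE 0.11). Of 8 genes of secreted and matrix proteins, 3 were higher and 4 lower (median -0.07), with Sparc higher (1.81, SE 0.16) and the proteoglycan genes Ncan (-3.24, SE 0.19) and Cspg5 (-1.62, SE 0.072) and the protease inhibitor gene Cst3 (-1.45, SE 0.13) lower. Of 8 transcription factor genes, 4 were higher, including Nfia (1.44, SE 0.084), and 4 lower, including the Notch target Hes5 (-2.83, SE 0.19), with a median of 0.0025. Of 16 genes used to mark reactive astrocytes, 9 passed, 4 higher and 5 lower (median -0.05), a share below the 68.9% of all genes. The intermediate filament gene Vim (2.16, SE 0.14) and the hyaluronan receptor gene Cd44 (1.81, SE 0.13), which is also made by other cells, were higher, and Fkbp5, which responds to glucocorticoids, was lower (-1.34, SE 0.16). The 27 named genes with at least a 2-fold difference kept their direction and their side of the threshold in each alternative fit run for this comparison.

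The second comparison was between Mbd5+/GT and WT mice within each region, the question of the study. None of the 10 genes passed an adjusted p of 0.05 in any region (edgeR with surrogate variables), where 0.00551% of all genes tested passed in cerebellum, 0.0107% in cortex and 0.00539% in striatum. DESeq2 called none of the 10 either. At an unadjusted p under 0.05 there was 1 gene of 10 per region, Gfap in cerebellum, Gfap in cortex and Gja1 in striatum, against 2.75%, 8.47% and 7.44% of all genes. The log2 fold changes of the 10 genes lay between -0.09 and 0.23 in cerebellum, -0.07 and 0.23 in cortex and -0.15 and 0.22 in striatum. Their 95% intervals reached at most 1.36-fold in cerebellum, 1.33-fold in cortex and 1.47-fold in striatum, the last for Gfap. The 10 genes had a median log2 fold change of 0.0075, 0.0087 and 0.0093 in these regions, and all genes tested -0.0035, -0.0042 and -0.0099.

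In cerebellum, Gfap had 104, 177 and 1370 CPM as the lowest, median and highest value of the 10 Mbd5+/GT mice and 139, 163 and 299 CPM in the 8 WT mice. The groups overlapped except for mouse M755. The fitted log2 fold change was 0.23 (SE 0.11, unadjusted p = 0.049, adjusted p = 1.00), against 0.70 (SE 0.44, p = 0.13) without surrogate variables. Without the library of mouse M755 it was 0.10 (SE 0.059, p = 0.12), and without the 4 Hox libraries 0.06 (SE 0.068, p = 0.42). For its difference in mean log2 CPM, p was 0.72 by exact permutation of the genotype labels, in 43758 ways.

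In cortex, where no library was low in cortical neuron genes, Gfap had 108, 159 and 188 CPM in Mbd5+/GT mice and 108, 129 and 149 CPM in WT mice. The groups overlapped, with 6 of 10 Mbd5+/GT libraries above the highest WT library, and 0.23 was the fitted log2 fold change (SE 0.089, unadjusted p = 0.018, adjusted p = 0.49). With litter and sex as covariates it was 0.24 (unadjusted p = 0.052). The mean log2 level was higher in Mbd5+/GT mice in each litter, by 0.14, 0.21 and 0.31. By the exact permutation test p was 0.082 over all splits and 0.086 when mice were exchanged within litters alone, in 3500 ways. In the same libraries the summed ependymal genes ranged from 9.65 to 39.1 CPM in Mbd5+/GT mice and from 8.63 to 14.8 CPM in WT mice. Sums of 7 striatal neuron genes there had a median of 377 CPM in Mbd5+/GT mice (162 to 956 CPM). In WT mice their median was 805 CPM (105 to 1366 CPM). The part of either list in this difference was not tested. In striatum the Gfap fold change was -0.11 (SE 0.23, p = 0.64), 0.0060 without the low libraries and 0.41 without litter 2, with 108 to 256 CPM in Mbd5+/GT and 109 to 324 CPM in WT mice.

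Gja1 in striatum had 169, 205 and 262 CPM as the lowest, median and highest value in Mbd5+/GT mice and 126, 182 and 232 CPM in WT mice, with overlapping groups. Its log2 fold change was 0.22 (SE 0.074, unadjusted p = 0.0078, adjusted p = 0.63), and the litters gave 0.39, 0.22 and 0.22. The exact permutation p was 0.073 over all splits and 0.071 within litters. Without the 2 striatum libraries low in striatal neuron genes the fold change was 0.23 (p = 0.013, adjusted p = 0.86). It was 0.22 with litter and sex as covariates (p = 0.055), 0.20 without surrogate variables (p = 0.11) and 0.19 without litter 2 (p = 0.17). In cerebellum (-0.0048, SE 0.042) and cortex (0.03, SE 0.044) Gja1 had narrow intervals around 0.

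The other 8 genes had unadjusted p-values above 0.05 in all 3 regions. For Slc1a2 the fold changes were 0.05, -0.04 and 0.05 in cerebellum, cortex and striatum, and in cerebellum its medians were 812 CPM in Mbd5+/GT and 825 CPM in WT mice. Slc1a3 had medians of 1434 and 1452 CPM in cerebellum, 723 and 723 CPM in cortex and 560 and 549 CPM in striatum, in Mbd5+/GT and WT mice. S100b had the most negative fold change, -0.15 (SE 0.099, p = 0.14) in striatum, and Sox9 had 0.16 (SE 0.11, p = 0.15) there. Both turned sign without litter 2 (0.031 and -0.0037). Aldoc ranged in cerebellum from 1576 to 2063 CPM in Mbd5+/GT and from 1316 to 2121 CPM in WT mice. No difference of the genotype effect between regions passed the adjusted threshold for any gene tested (0.0% of 20477 genes in each of the 3 comparisons, edgeR), and DESeq2, which gave no p for Gfap in cerebellum against striatum, called none of the 10. The fit for these differences held no surrogate variables, so its values are not differences of the fold changes given above. At an unadjusted p under 0.05 the counts were 0 of 10 for cerebellum against cortex, 1 of 10 for cerebellum against striatum and 0 of 10 for cortex against striatum, where 1.11%, 2.68% and 4.22% of all genes had such a p. The 1 gene was Gfap (log2 0.91, SE 0.42, p = 0.034), with a value of -0.09 (p = 0.71) without the libraries low in their own neuron genes.

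**Figure D3:**
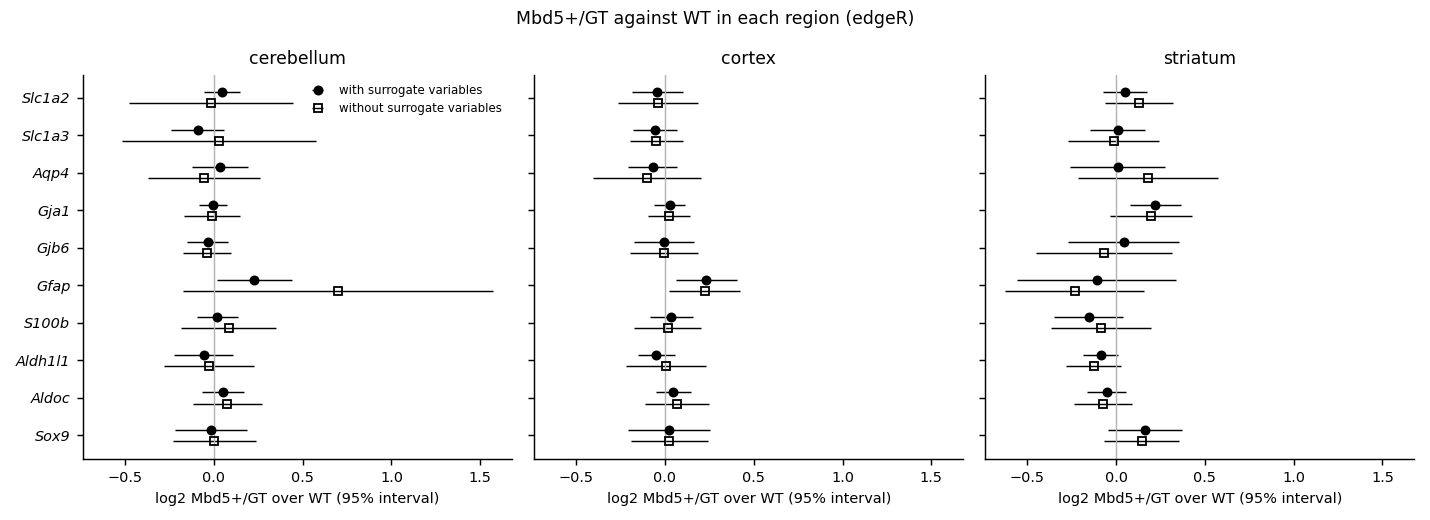
Log2 fold change of Mbd5+/GT over WT with its 95% interval for each gene in each region, from edgeR with surrogate variables (filled circles) and without them (open squares). With surrogate variables the intervals include 0 except for Gfap in cerebellum and cortex and Gja1 in striatum, and Gfap in cerebellum has the widest interval without surrogate variables, at 0.70 with an SE of 0.44.

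Of the other glial lists, no gene passed the adjusted threshold between genotypes in any region. At an unadjusted p under 0.05 were 7 of 77 such genes in cortex, 7 of 77 in striatum and 1 of 77 in cerebellum, or 9.09%, 9.09% and 1.3%, beside 8.47%, 7.44% and 2.75% of all genes. The cortex held Fxyd1 (0.23), Cd109 (0.77), Slc4a4 (-0.15), Dio2 (-0.24), Ncan (-0.19), Chrdl1 (-0.27) and Gdf10 (-0.30), and the striatum Sox2 (0.38), Nfia (0.17), Slc7a11 (0.28), Cd109 (0.38), S100a10 (-0.23), Acsbg1 (-0.13) and Gdf10 (-0.44). In cerebellum the only such gene of these lists was Itih3 (0.21). The lowest adjusted p among these was 0.296, for Fxyd1 in cortex. Choroid plexus genes varied widely in the same libraries, with sums over 7 genes of 8.22 to 1346 CPM in the cortex of Mbd5+/GT mice (median 290.1) and up to 239.6 CPM in that of WT mice (median 64.8), and the part of this in the genotype values was not tested.

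The spread between mice in cerebellum depended on few libraries. As a biological coefficient of variation (BCV, the edgeR estimate of relative spread beyond counting error), Gfap had 62.2%, Slc1a3 40.6% and Slc1a2 34.8% in cerebellum, where the median of all genes was 24.1%. Without the 4 Hox libraries these values were 17.98%, 12.0% and 20.1%, against a median of 17.7%. Gja1 had the lowest BCV of the 10 genes in cortex, 9.96% against a median of 17.1%, and Gjb6 in cerebellum, 11.8%. Without the Hox libraries Gja1 was the lowest in cerebellum as well, with 9.11% against 11.3% for Gjb6. In striatum Gfap (29.8%), Aqp4 (29.6%) and Gjb6 (29.0%) were the most variable, above the median of 22.1%.

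**Figure D4:**
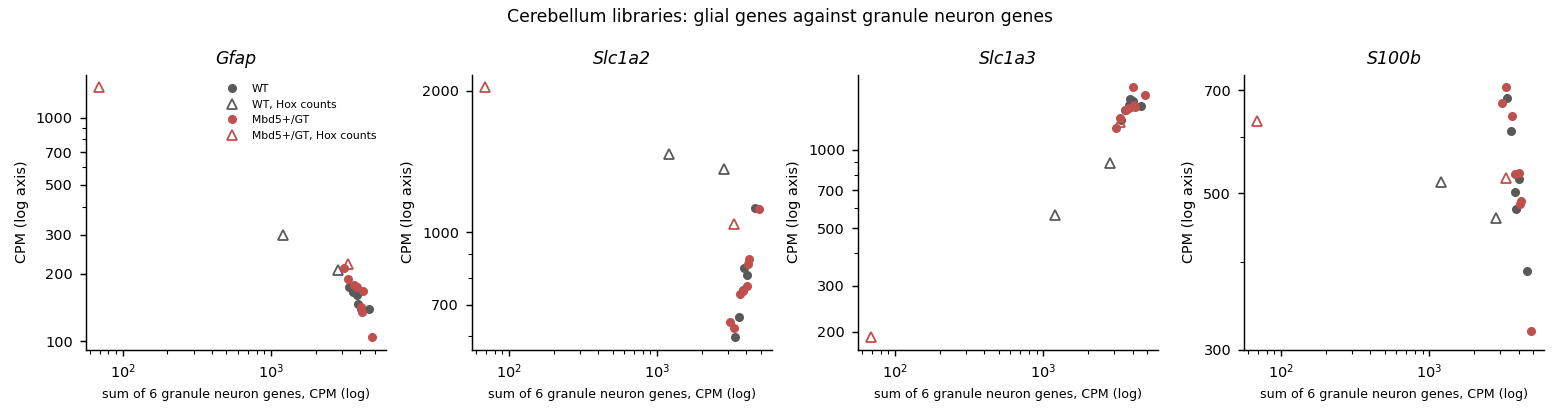
TMM-scaled CPM of Gfap, Slc1a2, Slc1a3 and S100b against the sum of 6 granule neuron genes in CPM of library totals (log axes). Points are the 18 cerebellum libraries, WT in grey and Mbd5+/GT in red, with open triangles for the 4 libraries with Hox counts. The library of mouse M755, at 69.3 CPM of granule neuron genes, has the highest Gfap and Slc1a2 and the lowest Slc1a3; Slc1a2 is highest in 3 of the 4 Hox libraries but increases with granule neuron genes among the other 14.

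Glial genes did not move as 1 group over mice. Because the Hox libraries stood apart, correlations in cerebellum were taken over the other 14 libraries and those of cortex and striatum over 18. Of the 135 pairs (45 per region), 3 positive and 6 negative correlations passed in cerebellum, 1 and 2 in cortex and 4 and 1 in striatum (permutation test, adjusted p under 0.05), and the median r was -0.07, -0.07 and 0.18. With litter means taken out, all of these pairs kept their sign. The share of pairs of other genes that would pass is not given here. Over all 18 cerebellum libraries 10 pairs passed, and some r had the opposite sign. For Slc1a2 and Slc1a3 r was -0.75 over the 18 and 0.62 over the 14. For Gfap and Slc1a2 it was 0.62 over the 18 and -0.80 over the 14. Slc1a2 was lower where S100b was higher among the 14 cerebellum libraries (r = -0.95, rho = -0.95, adjusted p = 0.000675 for both). Without the 2 libraries farthest from the median r was -0.92. Over all 18 cerebellum libraries r was -0.40 (rho -0.68, permutation adjusted p of r = 0.242). Gfap followed S100b there (r = 0.87, rho = 0.82, permutation adjusted p = 0.00135 and 0.0112, and r = 0.75 without the 2 farthest), and over all 18 r was 0.42 (rho 0.53, permutation adjusted p = 0.222).

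Aldh1l1 and Aldoc, both metabolic enzymes, were the only pair that passed in all 3 regions, with r of 0.73 in cerebellum (rho 0.75), 0.78 in cortex (rho 0.77) and 0.80 in striatum (rho 0.80), and permutation adjusted p-values of 0.0362, 0.00324 and 0.0054. Their r was 0.87, 0.67 and 0.79 without the 2 farthest libraries, and 0.68 over all 18 cerebellum libraries. Aqp4 went against both, with r of -0.88 to Aldh1l1 and -0.73 to Aldoc in cerebellum, and -0.75 and -0.89 in cortex. The corresponding rho were -0.80, -0.77, -0.74 and -0.89, the permutation adjusted p-values of r were 0.00135, 0.0395, 0.00733 and 0.000675, and r without the 2 farthest libraries was -0.82, -0.80, -0.67 and -0.84. Over all 18 cerebellum libraries these r were -0.78 and -0.75. In striatum neither passed. Gja1 correlated with Slc1a3 (r = 0.63, rho = 0.61) and Aqp4 (r = 0.62, rho = 0.67) in striatum (permutation adjusted p = 0.0484 for both r, and 0.056 and 0.027 for rho, so that the first did not pass by rank; r were 0.48 and 0.51 without the 2 farthest libraries).

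**Figure D5:**
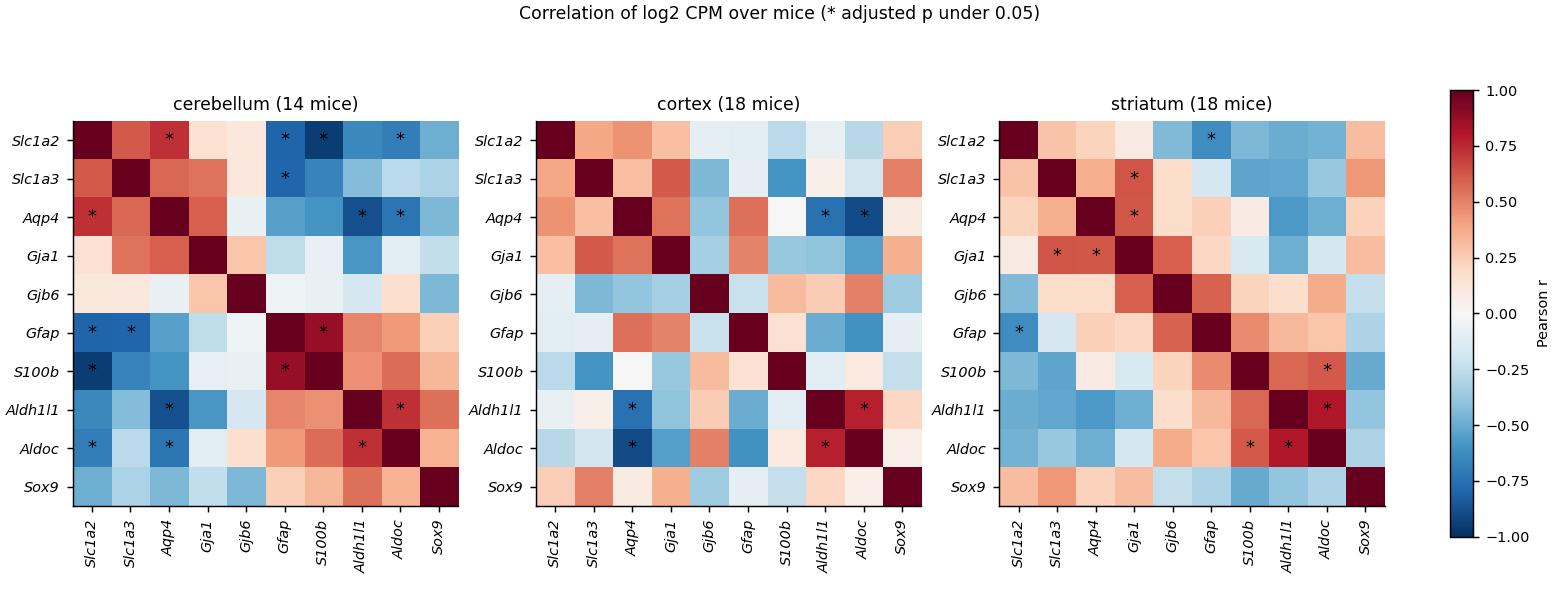
Pearson r of log2 CPM between the 10 genes over mice in cerebellum (14 libraries without Hox counts), cortex and striatum (18 each), from -1 in blue to 1 in red, with asterisks at an adjusted p under 0.05. In these 14 cerebellum libraries r is positive among Slc1a2, Slc1a3 and Aqp4 and among Gfap, S100b, Aldh1l1 and Aldoc. It is negative between these 2 sets. Over all 18 cerebellum libraries some of these signs turned, as for Slc1a2 with Slc1a3 (r = -0.75) and Gfap with Slc1a2 (r = 0.62). Of the 45 cerebellum pairs, 3 positive and 6 negative ones passed. Aldh1l1 and Aldoc are positive in all 3 panels.

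Levels also moved with genes of other cell types, over 300 relations of 10 genes to 10 marker lists in 3 regions. In cerebellum 12 passed (19 over all 18 libraries), 1 in cortex and 3 in striatum, each with the same sign once litter means were taken out. The share of all genes that would pass such tests is not given here, so these counts cannot be called particular to the glial genes. Slc1a2 increased with granule neuron genes (r = 0.95, rho = 0.94, r = 0.96 without the 2 farthest libraries, permutation adjusted p = 0.0015, from the smallest p that 100000 resamples allow), and S100b went down with them (r = -0.94, rho = -0.90, r = -0.93 without the 2 farthest, permutation adjusted p = 0.0015). Both depended on leaving out the Hox libraries: over all 18 libraries r was -0.67 for Slc1a2 (rho -0.01, permutation adjusted p = 0.0611), of the opposite sign, and -0.30 for S100b (rho -0.55, permutation adjusted p = 0.568). Gfap followed myelin genes (r = 0.92, rho = 0.87, r = 0.83 without the 2 farthest, permutation adjusted p = 0.002) and microglial genes (r = 0.88, rho = 0.80, r = 0.74, permutation adjusted p = 0.003), with r of 0.94 and 0.91 over all 18. In striatum, Slc1a3 decreased with myelin genes (r = -0.82, rho = -0.83, r = -0.77, permutation adjusted p = 0.0024). In cortex the passing relation was that of Aldh1l1 to endothelial genes (r = 0.77, rho = 0.74, r = 0.64, permutation adjusted p = 0.0069). All values come from the same libraries and share their total, and what part the makeup of the dissected tissue has in them was not tested.

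The genes whose deviation from the region mean was most like the average of the 10, over 54 libraries, were Sparcl1 (r = 0.71), Laptm4b (0.69), Anxa5 (0.66), P2rx5 (0.66) and Pygm (0.66). Without the 6 libraries that stood apart, Sparcl1 (r = 0.69), which encodes a matrix protein secreted by astrocytes, was again the first, and the other 4 gave way to Bmp5 (0.67), Akain1 (0.66), Slc14a1 (0.64) and Gm20594 (0.63).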

How the data were processed

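Poly-A RNA-seq libraries of 18 mice and 3 regions were sequenced by the authors, who aligned reads to GRCm38 with STAR 2.4.2 and deposited whole-number counts per gene (quality checks with FastQC 0.10.1). Which strand column was used is not given in the sources used here, so overlapping genes are uncertain. The 92 spike-in rows (0.0207% to 0.728% of reads) were left out. Of 47069 gene identifiers, 46574 matched a symbol.

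The filter kept genes for which 8 or more libraries had over 4 counts. Levels of single genes are TMM-scaled CPM, log2 values with a prior count of 2, and per-kilobase levels use the union of annotated exons. Sums of marker genes are CPM of library totals. Genotypes were compared within each region with edgeR 4.0.16 quasi-likelihood tests with 2, 4 and 4 surrogate variables (sva 3.50.0) for cerebellum, cortex and striatum. Regions and interactions were tested in 1 fit over 54 libraries without surrogate variables. Both used Benjamini-Hochberg adjustment. Alternatives were DESeq2 1.42.0, other scalings, covariates and filters, and libraries left out (R 4.3.3, Python 3.11.15). The tests were tried on simulated data. Exact permutation tests of single genes were two-sided. Correlations used 100000 resamples, for which 1e-05 is the smallest p, and were planned over 18 cerebellum libraries but are given over 14, chosen after seeing the data.

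Members and lists were chosen with earlier results of these data known. Of each list, up to 4 genes with the largest differences between regions past the threshold were named. The mouse pairs the regions: residuals of the same mouse had median correlations of 0.164, 0.0618 and 0.0911 over the 3 pairs of regions, against -0.0103, -0.00495 and -0.00588 between mice. The lowest chi-square per gene among 219 pairs of libraries of 1 group was 8.85, so none was a duplicate. Promoter windows are from RefSeq on GRCm38.p6, with entries for 8 of the 10 genes.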

Additional observations from a re-analysis of the deposited data

Results flagged for a closer look

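Of 60 groups examined (10 genes, 3 regions, 2 genotypes), 8 held a library far from the others of its group by Dixon's test, which chance gives in about 1 of 20 groups. The cerebellum library of Mbd5+/GT mouse M755 accounted for 4 of them, with the highest Gfap (1370 CPM), Slc1a2 (2038 CPM) and Gja1 (324 CPM) and the lowest Slc1a3 (191 CPM) of its group. That of WT mouse M754 had the highest Gfap (299 CPM) and Gja1 (303 CPM) of the WT cerebellum libraries. Both are libraries with Hox counts. The others were Aqp4 in the striatum of Mbd5+/GT mouse M758 (179 CPM) and Aldoc in the cortex of WT mouse M757 (1059 CPM), neither of which stood apart by its region's neuron genes.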

How the results depend on the processing

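With the mouse as a replicate block, which pairs the regions, Sox9 passed between cortex and striatum (-0.16, adjusted p = 0.0123) and no other call of the 67 compared changed. DESeq2 gave no adjusted p for Gfap in the 3 region comparisons and in 1 interaction. Of the 10 genes, the number with an unadjusted p under 0.05 between genotypes in cerebellum went from 1 to 0 with library totals, with litter and sex as covariates, without a filter, without surrogate variables, without litter 2, without the Hox libraries and without the libraries low in neuron genes, where the share of all genes at that p was 2.75% in the main analysis and from 0.463% (no surrogate variables) to 4.24% (no filter) in these. In cortex it went from 1 to 0 with litter and sex (4.11% of all genes, against 8.47%) and to 2 without litter 2 (9.15%), and in striatum from 1 to 0 with litter and sex (9.22%, against 7.44%), without surrogate variables (5.44%) and without litter 2 (1.57%).

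Between regions, those of the 10 higher in cerebellum than cortex went from 8 to 5 without litter 2, without the Hox libraries and in WT libraries alone, where 31.8%, 34.5% and 28.4% of all genes were higher, against 35.5%. Those lower in cerebellum than striatum went from 2 to 1, Aldh1l1 no longer passing, with library totals, no filter, WT libraries alone, and without litter 2, the 2 repeated libraries, the Hox libraries or the low libraries, where 25.5% to 40.5% of all genes were lower, against 37.3%. The 2 repeated libraries are those of the striatum of WT mice M751 and M752, whose labels mark them as repeats. Those lower in cortex than striatum went from 3 to 0 without litter 2 (25.4% of all genes, against 28.9%). Relations to marker lists in cerebellum went from 19 over 18 libraries to 12 without the Hox libraries.

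Genotype fold changes that turned sign, none past the adjusted threshold, were as follows. With library totals, Gjb6 in cortex was 0.027. With litter and sex, Aldh1l1 (0.040), S100b (-0.017) and Slc1a2 (0.0092) in cortex, Gjb6 in striatum (-0.086) and Sox9 in cerebellum (0.053) turned. With no filter, S100b (-0.072) and Slc1a3 (0.040) in cortex and Slc1a3 in striatum (-0.0020) did. Without surrogate variables these were Aldh1l1 in cortex (0.0040), Gjb6 (-0.068) and Slc1a3 (-0.014) in striatum, and Aqp4 (-0.054), Slc1a2 (-0.013), Slc1a3 (0.029) and Sox9 (0.0026) in cerebellum. Without litter 2 they were Aldh1l1 (0.019), Aqp4 (-0.063) and Sox9 (0.024) in cerebellum, S100b in cortex (-0.12), and Aldh1l1 (0.034), Aldoc (0.00068), Gfap (0.41), S100b (0.031), Slc1a2 (-0.0041), Slc1a3 (-0.054) and Sox9 (-0.0037) in striatum. Aqp4 in striatum was -0.053 without the 2 repeated libraries. Without the Hox libraries, Aqp4 (-0.0097) and Gjb6 (0.011) in cerebellum turned, and without the low libraries Gfap in striatum (0.0060) and Slc1a3 in cerebellum (0.0037) did, as did the Gfap interaction of cerebellum against striatum (-0.086). The Gfap difference of cerebellum from striatum turned without the Hox libraries (-0.20) and in WT libraries alone (-0.14). The cause of these changes was not tested. The alternatives without the Hox or low libraries, and litter means taken out of correlations, were chosen after seeing the data.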
